A study of Mus musculus with 12 samples.

Results

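A set of 41 interferon-stimulated genes that lie outside the OAS, IFIT, Mx, Trim, Ifi200, Schlafen and Gbp/Irgm families was followed in CD11c+ cells from infected mouse lungs. Members were taken by gene symbol from a fixed list, and 39 of the 41 were measured on probe sets that carry a single symbol, out of 18193 genes measured in all. Parp10 and Ifi44 were not analysed here. The cells came from lungs digested with collagenase and DNase and were pulled out with beads against CD11c; the labels say that a few lymphocytes and unidentified cells remained. All mice had been given Pneumocystis, a fungus that infects the lung, through the trachea. The 4 groups are wildtype and IFNAR-/- animals, the latter without a working type I interferon receptor, taken on day 7 or day 14 of infection; each has 3 animals with 1 array apiece. The labels name no other allele or agent and give neither age nor strain. They tie the missing receptor to no cell type, so CD11c+ cells and their neighbours both came from IFNAR-/- animals. No uninfected group was used, so a level before infection is not known here.

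Type I interferons bind a receptor made of Ifnar1 and Ifnar2, and the kinases Jak1 and Tyk2 then activate a transcription factor complex that includes Irf9. This complex binds a short DNA element, the interferon-stimulated response element (ISRE), and switches on a large set of genes. The members studied here lie outside the well-known OAS, IFIT and Mx families. Among other roles they conjugate the ubiquitin-like protein ISG15, add ADP-ribose to proteins, edit or degrade RNA, block viral entry at membranes, or reorganise nuclear bodies and chromatin. Many can also be switched on by interferon gamma, through another element, the gamma-activated site (GAS). In lung macrophages and dendritic cells these genes are a standard read-out of interferon exposure.

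Promoter sequences from RefSeq (build GRCm38.p6), running from 250 bases before to 50 bases after the start of transcription, were held for 31 of the 39 measured members. There was no such entry for Usp18, Ly6e, Parp9, Parp14, Rtp4, Ifi27l2a, Tor3a and Gm4951. The ISRE core, GAAA, then any 2 bases, then GAAA, searched on both strands, was present in 7 of the 31 members (22.58%), against 3.63% of the 14452 measured genes with a promoter entry and 3.44% of all 32851 windows of this length. The GAS core TTCNNNGAA, which can overlap the ISRE, was present in 6 of the 31 members (19.35%), against 8.57% of those genes and 8.3% of all windows. A match describes letters in this window and is not a measured binding site.

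The matches are printed with 30 bases of context, 5′ to 3′ on the strand of the gene, because they show how the ISRE core varied among members. Capitals mark the core, written as its reverse complement where it lies on the other strand.
Ddx60, chr8:61928024-61928053, plus strand: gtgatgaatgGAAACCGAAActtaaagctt
Ddx60, chr8:61928058-61928087, plus strand: gagcagaagaGAAACCGAAActatccttca
Ifitm3, chr7:141010714-141010743, minus strand: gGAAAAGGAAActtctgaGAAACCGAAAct
Ifitm2, chr7:140955988-140956017, minus strand: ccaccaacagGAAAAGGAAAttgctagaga
Parp11, chr6:127446786-127446815, plus strand: ttccttttagTTTCGATTTCttggaacccg
Lgals9, chr11:78984960-78984989, minus strand: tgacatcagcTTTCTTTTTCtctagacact
Lgals9, chr11:78984890-78984919, minus strand: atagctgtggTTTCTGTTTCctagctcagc
Apobec3, chr15:79892258-79892287, plus strand: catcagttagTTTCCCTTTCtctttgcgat
Tdrd7, chr4:45972096-45972125, plus strand: gaactttgtgGAAAGAGAAAtaaatccaca
Ddx60 held the core in the same letters at 53 and again at 19 bases before the start. In Ifitm3 both copies lay after the start, one of them in the same letters as in Ddx60. Ifitm2 shared the other Ifitm3 core letter for letter, 46 bases before its start.

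Of the members whose genotype difference at day 7 passed the test described below, Lgals9 and Apobec3 held the core before their start, at 55 and 140 bases; the 250 bases before the start are given for both, with the core in capitals.
Lgals9, chr11:78984925-78985174, minus strand: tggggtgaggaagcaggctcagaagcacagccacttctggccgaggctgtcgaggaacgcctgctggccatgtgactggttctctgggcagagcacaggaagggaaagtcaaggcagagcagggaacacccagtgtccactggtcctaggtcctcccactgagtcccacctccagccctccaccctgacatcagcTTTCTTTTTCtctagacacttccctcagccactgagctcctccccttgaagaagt
Apobec3, chr15:79892158-79892407, plus strand: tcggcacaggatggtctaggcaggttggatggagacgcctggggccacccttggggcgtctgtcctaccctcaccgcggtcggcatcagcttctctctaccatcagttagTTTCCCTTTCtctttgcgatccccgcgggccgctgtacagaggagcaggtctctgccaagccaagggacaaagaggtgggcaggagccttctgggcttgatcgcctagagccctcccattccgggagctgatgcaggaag
The core was found in 2 of 11 members with a promoter entry that passed at day 7 and in 5 of 20 that did not, a count without a test. The members with the largest day 7 differences, Ifi27l2a, Gm4951, Usp18 and Rtp4, have no entry and are in neither count.

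Each value given here sets a gene on 1 array against its median over all 12 arrays, as a log2 ratio averaged over its probe sets; they compare arrays for 1 gene and do not rank genes by abundance. A value of 1 is a level 2-fold above that median. Differences are given on the log2 scale with the standard error (SE) of a limma model fitted to all 18193 genes, with n = 3 arrays per group, and "passed" means an adjusted p under 0.05 by Benjamini-Hochberg over all genes. Because the ratio removes brightness, it cannot be read from it whether CD11c itself (Itgax) was abundant; its difference between genotypes was 0.02 ± 0.13 (SE) at day 7 and 0.22 ± 0.13 at day 14. Ifnar1 differed by -0.98 ± 0.35 at day 7 (limma adjusted p 0.208) and by -0.19 ± 0.35 at day 14, and neither passed; which part of the gene is altered is not given.

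Several arrays stood apart. IFNAR-/- day 7 mouse 3 had array medians of 2.05 for neutrophil, 2.07 for lung epithelial, 2.66 for endothelial and 1.93 for fibroblast markers, and wildtype day 7 mouse 1 had 1.78 for lung epithelial and 2.20 for endothelial markers. IFNAR-/- day 14 mouse 2 had the widest spread, with an interquartile range of 0.582. The 5′ over 3′ signal of control genes tracks RNA integrity. Its log2 value averaged -0.445 ± 0.406 (SD, n = 3) for wildtype day 14, 0.112 ± 0.057 in wildtype day 7, 0.117 ± 0.05 in IFNAR-/- day 14 and -0.111 ± 0.355 in IFNAR-/- day 7 arrays. In CD11c+ bulk RNA, fewer cells of a type and less RNA per cell cannot be told apart.

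Members stood highest in wildtype cells at day 7. Across the 39 members the median log2 ratio was 0.754, 1.114 and 0.39 in the wildtype day 7 arrays. It was -0.264, -0.245 and 0.122 in IFNAR-/- day 7, -0.054, -0.079 and -0.071 in wildtype day 14, and -0.046, -0.07 and -0.389 in IFNAR-/- day 14 arrays. Every wildtype day 7 array thus lay above every array of the other groups, while the medians of all genes lay between -0.02 and 0.003. Within groups single arrays led for most members: wildtype day 7 mouse 2 held the highest value of its group for 33 of the 39 members, against 33.4% of all genes. IFNAR-/- day 7 mouse 3, the array rich in neutrophil and lung structural markers, was the highest of its group for 33 of 39 as well, against 35% of all genes, and IFNAR-/- day 14 mouse 3 was the lowest of its group for 25 of 39, against 28.3%.

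**Figure D1:**
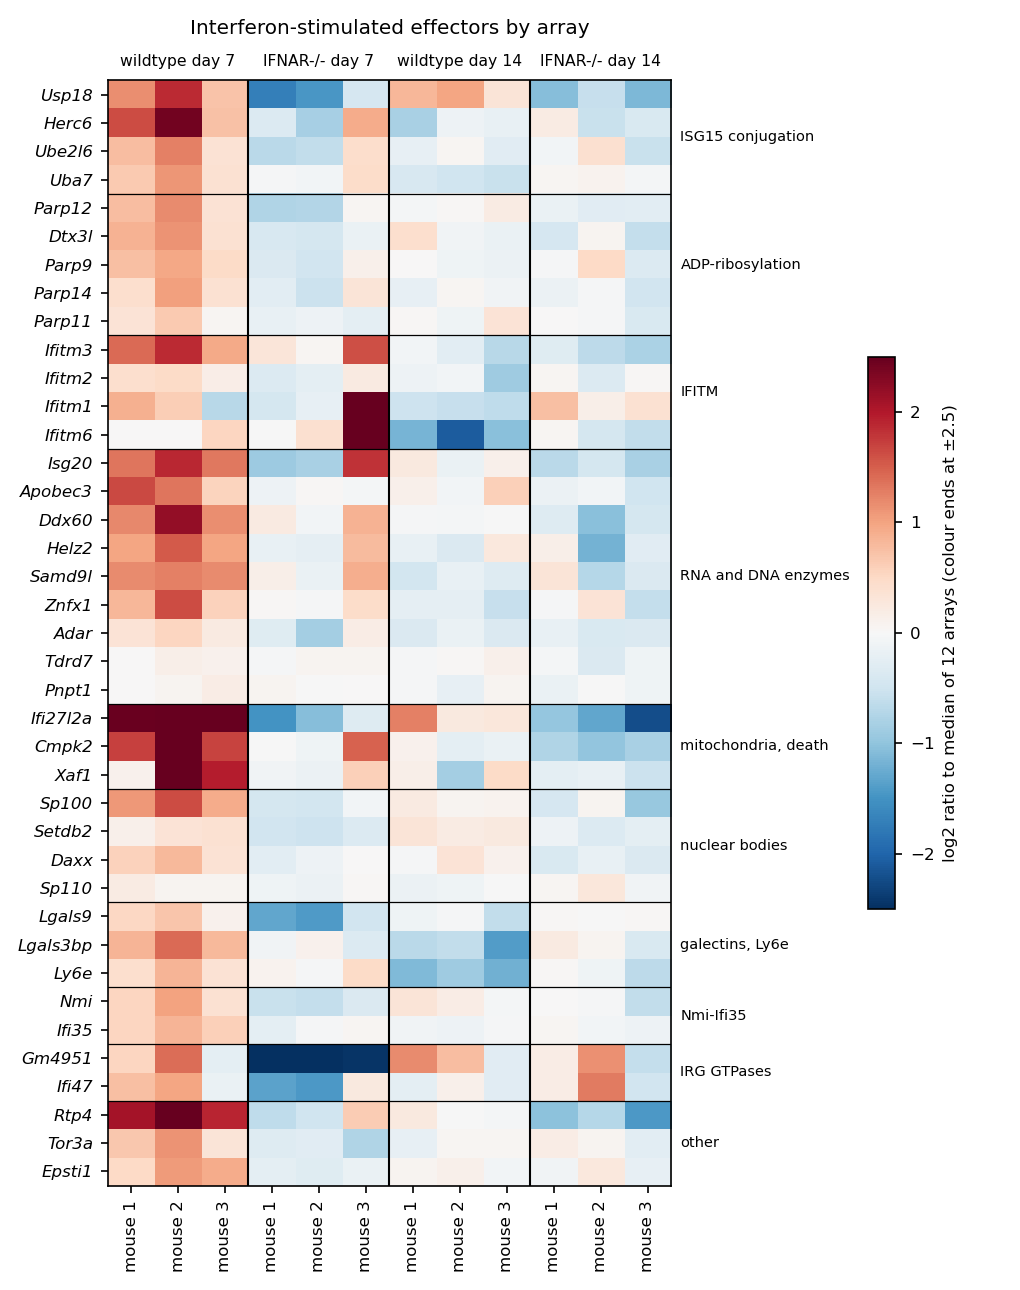
Log2 ratio of each of the 39 measured members (rows, grouped by role) in each of the 12 arrays (columns, 3 mice per group); the colour scale ends at ±2.5. Wildtype day 7 arrays are red for most members, and within IFNAR-/- day 7 the array of mouse 3 is redder than those of mice 1 and 2.

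Much of the set was lower without the receptor at day 7. Of 39 members 37 had a difference below 0, where 50.3% of all genes did, and 17 passed as lower in IFNAR-/- cells (43.6%), where 1.35% of all genes passed as lower and 2.64% in either direction. None passed as higher by limma, and none of the 39 had an unadjusted p under 0.05 in that direction, where 1.29% of all genes passed as higher. The median difference was -1.07 against 0.00 for all genes, and for 26 members the genotypes had no overlap, all lower, where this held for 11.6% of all genes. The members that passed were lower by 1.64-fold to 12.2-fold. Whichever 1 array was left out, 10 of the 17 passed: Usp18, Rtp4, Ifi27l2a, Ifi35, Sp100, Tor3a, Epsti1, Gm4951, Setdb2 and Lgals9. The number passing was 10 without IFNAR-/- day 7 mouse 1, 10 without mouse 2, 11 without wildtype day 7 mouse 2, and 26 without both IFNAR-/- day 7 mouse 3 and IFNAR-/- day 14 mouse 2.

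Ifi27l2a, which encodes a small hydrophobic interferon-induced protein, showed the widest gap. At day 7 the wildtype mice stood at 2.46, 2.80 and 2.68 and the IFNAR-/- mice at -1.50, -1.06 and -0.33, so that the groups lay far apart. The difference was -3.61 ± 0.37 (SE), or 12.2-fold, with a limma adjusted p of 0.000595. Gm4951, which encodes a predicted interferon-inducible GTPase, came next, at 0.53, 1.40 and -0.24 against -3.35, -2.53 and -2.46 without the receptor. It differed by -3.34 ± 0.52, or 10.1-fold (limma adjusted p 0.00721). All 3 IFNAR-/- mice were far below wildtype, mouse 3 included. Rtp4, a chaperone-like protein with antiviral activity, stood at 2.08, 2.55 and 1.91 in wildtype arrays and at -0.64, -0.51 and 0.64 in IFNAR-/- arrays, a difference of -2.35 ± 0.31 (limma adjusted p 0.00309).

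In the ISG15 conjugation group only Usp18 passed at day 7, out of 4 measured members that all had differences below 0. Usp18 removes ISG15 from proteins and also damps signalling at the interferon receptor. It stood at 1.16, 1.86 and 0.71 with the receptor and at -1.72, -1.46 and -0.43 without it, a difference of -2.44 ± 0.36 (limma adjusted p 0.00471). The enzymes that attach ISG15 are the activating enzyme Uba7, the conjugating enzyme Ube2l6 and the ligase Herc6, and they had differences of -0.60 ± 0.18, -1.08 ± 0.33 and -1.67 ± 0.47. For Herc6 the wildtype values of 1.62, 2.41 and 0.74 overlapped the IFNAR-/- values of -0.34, -0.82 and 0.93 through mouse 3 alone. Without that array Herc6 and Ube2l6 passed, and Uba7 did not. Isg15 itself was not analysed here.

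Among ADP-ribosylation genes Parp9, Parp12 and Dtx3l passed, and for all 5 measured members every IFNAR-/- array lay below every wildtype array. Parp9 and Dtx3l encode partners in a complex that joins ADP-ribose and ubiquitin transfer, and their differences were -0.97 ± 0.22 (limma adjusted p 0.0405) and -1.12 ± 0.23 (0.0256). Of the 12 fits that leave out 1 array Parp9 passed in 4 and Dtx3l in 8. The Dtx3l probe sets disagreed in size, with -1.50, which passed by itself, and -0.75. Parp12, an enzyme that adds single ADP-ribose units, had a difference of -1.24 ± 0.23 (limma adjusted p 0.0178). Parp14 at -0.78 ± 0.23 and Parp11 at -0.53 ± 0.17 did not pass. For Parp11 the probe sets disagreed, with differences of -0.98, which passed over all probe sets, and -0.08.

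The nuclear body and chromatin genes were lower as a group, with 3 of 4 past the test and no overlap between genotypes for any of the 4. Sp100, a core component of PML nuclear bodies, stood at 1.08, 1.64 and 0.93 in wildtype mice against -0.44, -0.46 and -0.08, a difference of -1.54 ± 0.24 (limma adjusted p 0.00726). Setdb2, a histone methyltransferase, had a smaller but very even gap, with 0.12, 0.33 and 0.38 against -0.48, -0.52 and -0.34, a difference of -0.72 ± 0.10 (limma adjusted p 0.00446). Daxx, a histone chaperone of the same bodies, passed with -0.71 ± 0.14 (limma adjusted p 0.0205). Sp110 had a difference of -0.19 ± 0.11 and did not pass.

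Lgals9 and Lgals3bp, a galectin and a secreted glycoprotein that binds galectins, were both lower at day 7. Lgals9 values were 0.52, 0.68 and 0.10 in wildtype mice against -1.30, -1.41 and -0.48, a difference of -1.50 ± 0.24 (limma adjusted p 0.00841). Lgals3bp values were 0.84, 1.42 and 0.81 against -0.09, 0.11 and -0.35, a difference of -1.14 ± 0.24 (limma adjusted p 0.0342). Ly6e, a membrane protein held by a lipid anchor, did not separate, at -0.36 ± 0.20. Nmi and Ifi35, which encode proteins that bind each other, passed with -1.14 ± 0.19 (limma adjusted p 0.0115) and -0.74 ± 0.11 (0.00689). Tor3a, an ATPase of the endoplasmic reticulum, passed with -1.16 ± 0.20 (limma adjusted p 0.0136) and Epsti1 with -1.07 ± 0.16 (0.00522).

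Among RNA and DNA enzymes all 9 members had differences below 0, 7 of them at an unadjusted p under 0.05 by limma, and the genotypes did not overlap for 6. Only Apobec3, a cytidine deaminase that restricts retroviruses, passed after adjustment, at 1.64, 1.34 and 0.56 with the receptor against -0.12, 0.03 and -0.05 without it, a difference of -1.23 ± 0.25 (limma adjusted p 0.0272). The exonuclease gene Isg20 had the largest difference of the group, -1.49 ± 0.56, yet did not pass. It stood at 1.34, 1.89 and 1.33 in wildtype mice against -0.91, -0.82 and 1.80 in IFNAR-/- mice, the last value being that of mouse 3. Samd9l at -0.91, the RNA-editing enzyme Adar at -0.69, and the helicase-type genes Ddx60 at -1.17, Helz2 at -1.03 and Znfx1 at -0.86 did not pass although their genotypes did not overlap; 1 of the 3 Adar probe sets passed by itself, at -0.63. The Ddx60 probe sets disagreed in size, with -1.96, which passed by itself, and -0.39. Pnpt1 and Tdrd7 had differences of -0.06 each, with SEs of 0.10.

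Cmpk2, a mitochondrial nucleotide kinase, had a difference of -1.63 ± 0.40 (limma adjusted p 0.0593), with IFNAR-/- mouse 3 again nearest to wildtype at 1.48. Of its probe sets 1 of 2 passed by itself, at -1.85, and the other read -1.40. Xaf1, a gene linked to cell death, had an average difference of -1.59 ± 0.60, and its probe sets disagreed. On one the wildtype arrays held 4.36, 4.31 and 2.91 and the IFNAR-/- arrays 0.18, -0.20 and -0.23, a difference of -3.95 that passed over all probe sets (limma adjusted p 0.0052). The second probe set read -4.15, 1.85 and 1.00 in wildtype mice, so that they spread widely on both sides of 0, and the difference of 0.76 did not pass. The group means of Xaf1 therefore rest on 1 probe set that separates the genotypes and 1 that does not.

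**Figure D2:**
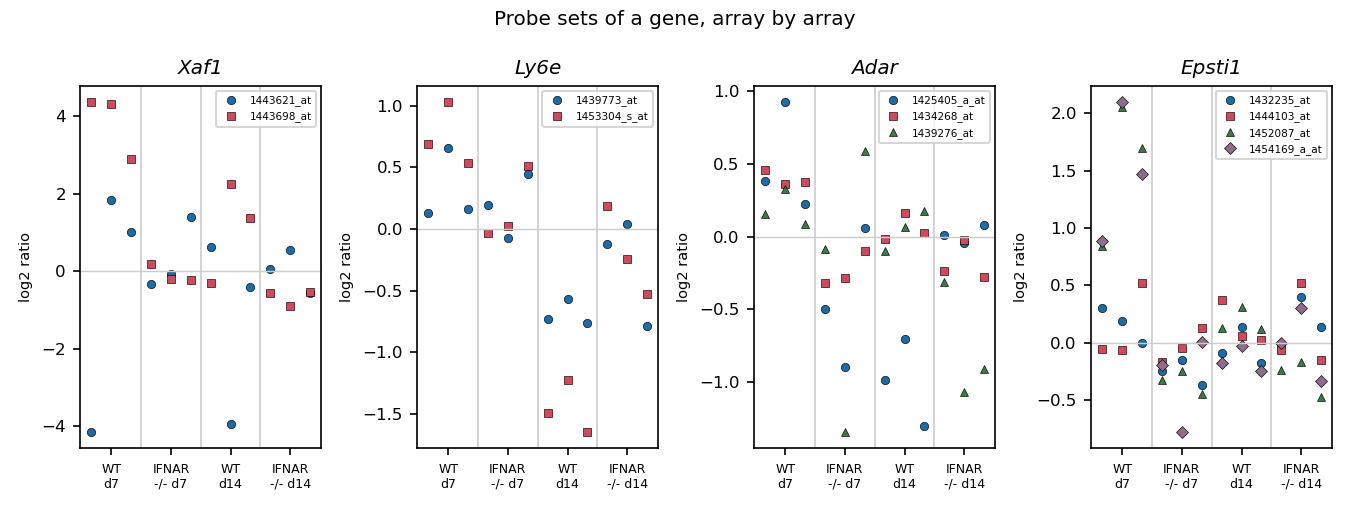
Log2 ratio of every probe set of Xaf1, Ly6e, Adar and Epsti1 in each array, 3 mice per group from left to right within each strip. For Xaf1 the squares separate the genotypes at day 7 (2.91 to 4.36 against -0.23 to 0.18) and the circles do not; for Epsti1, 2 of the 4 probe sets carry the difference.

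The IFITM genes, whose products sit in membranes and hinder viral entry, had 2 differences below 0 and 2 above at day 7. None of the 4 passed, and their arrays overlapped in each case. Ifitm6 stood at 0.01, 0.01 and 0.53 in wildtype arrays and at 0.00, 0.41 and 3.30 in IFNAR-/- arrays. Ifitm1 stood at 0.88, 0.62 and -0.68 against -0.45, -0.20 and 2.59. In both genes the high value was that of mouse 3. That array had marker medians of 2.05 for neutrophils, 2.07 for lung epithelium, 2.66 for endothelium and 1.93 for fibroblasts. The part of any such cells in these values was not tested. Ifitm3 had a difference of -0.76 ± 0.37 and Ifitm2 of -0.47 ± 0.23. Without IFNAR-/- day 7 mouse 3 Ifitm3 passed by limma, at -1.24, and with array weights both passed.

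The same arrays showed other parts of the pathway at lower levels too. Of 18 measured classical interferon-stimulated genes 13 passed as lower at day 7 and 0 as higher, with a median of -1.50; no member of that list had an unadjusted p under 0.05 in the upward direction by limma. Oas1a at -3.50 ± 0.21, Oasl2 at -3.22 ± 0.62, Mx1 at -2.94 ± 0.30 and Oas3 at -2.81 ± 0.28 had the largest differences. Of 10 receptor and signalling genes Irf7 (-2.59 ± 0.36), Socs1 (-1.96 ± 0.28) and Irf9 (-0.98 ± 0.18) passed as lower. Of 5 type I interferon genes Ifnb1 was higher by 3.03 ± 0.34. Of 11 genes of the interferon gamma axis only Cxcl9 passed, at -2.64 ± 0.52, with a list median of -1.51. Dendritic cell markers also moved: 5 of 7 passed as lower, and their array medians were -0.49 to -0.36 in IFNAR-/- and 0.37 to 0.43 in wildtype arrays. T cell markers were below 0 for 8 of 8, with a median of -1.03; 7 did not overlap between genotypes, 5 had an unadjusted p under 0.05 by limma and none passed. The part of cell composition in the member differences was not tested.

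**Figure D3:**
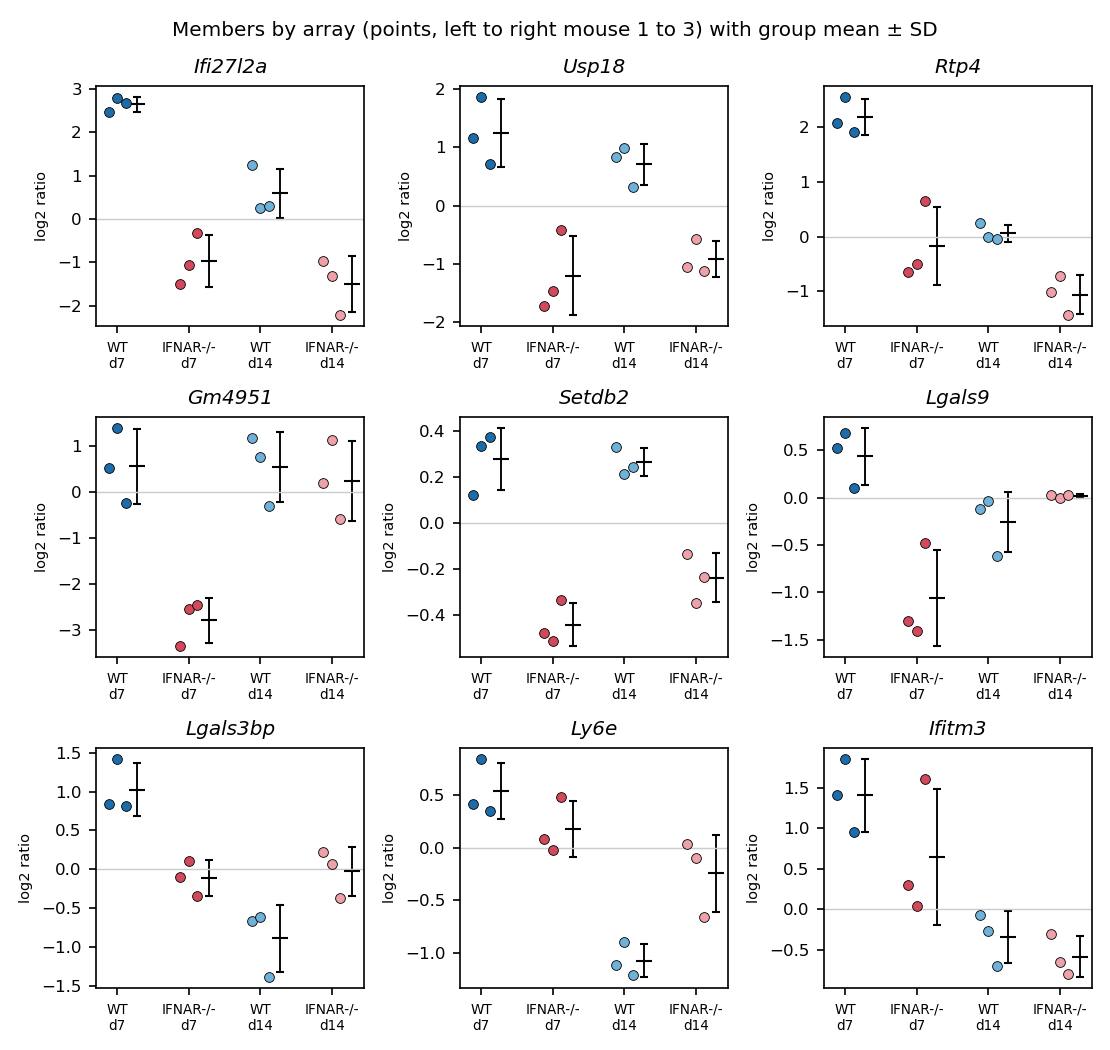
Log2 ratios of 9 members in each array (points, 3 mice from left to right) with the mean and SD of each group of 3. Ifi27l2a, Usp18 and Setdb2 separate the genotypes on both days, Gm4951 and Lgals9 are low in IFNAR-/- day 7 only, and Lgals3bp and Ly6e are lowest in wildtype day 14.

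At day 14 most of the genotype difference was gone, and the members split in direction. Of 39 members 3 passed as lower in IFNAR-/- cells (7.69%), where 3.29% of all genes did (5.04% in either direction), and Ly6e passed as higher, where 1.75% of all genes did. The median was -0.14, 23 members were below 0, where 49.5% of all genes were, and 16 above. Arrays did not overlap for 11 lower and 6 higher members, against 13.3% and 10.2% of all genes. The 3 lower members, Ifi27l2a, Usp18 and Setdb2, had also passed at day 7 in other mice. They make up 17.6% of the 17 members lower at day 7 and 100% of those lower at day 14. The share of all genes lower on both days was not computed. Both tests took the spread of a gene from all 12 arrays, so the calls of the days are not fully independent. Of these 17 members, 12 were still below 0 at day 14 and all 17 had a smaller difference than at day 7, with a median of -0.37 against -1.16. Because the 17 were picked by their day 7 difference, a smaller one at day 14 does not by itself show a decline.

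Ifi27l2a was again the widest apart, at 1.25, 0.25 and 0.29 with the receptor against -0.97, -1.31 and -2.22 without it. The difference was -2.10 ± 0.37 (SE), or 4.28-fold (limma adjusted p 0.013), and it passed whichever 1 array was left out. Usp18 stood at 0.82, 0.98 and 0.32 against -1.06, -0.57 and -1.12, a difference of -1.62 ± 0.36 (limma adjusted p 0.0274). Setdb2 kept its narrow gap, at 0.33, 0.21 and 0.24 against -0.14, -0.35 and -0.23, a difference of -0.50 ± 0.10 (limma adjusted p 0.0222). Rtp4, at -1.12 ± 0.31, had no overlap between genotypes but did not pass.

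Ly6e ran the other way. Its wildtype day 14 values of -1.11, -0.90 and -1.21 lay below the IFNAR-/- values of 0.03, -0.10 and -0.66, a difference of 0.83 ± 0.20 (limma adjusted p 0.0414). Its probe sets differed by 1.26 and 0.40, and only the first of these passed by itself. Lgals3bp (0.86 ± 0.24), Lgals9 (0.27 ± 0.24), Uba7 (0.51 ± 0.18), Ifitm1 (1.00 ± 0.66) and Ifitm6 (1.10 ± 0.67) also lay above wildtype in every array without passing. For Ifitm6 the wildtype values were -1.16, -2.08 and -1.05 and the IFNAR-/- values 0.06, -0.44 and -0.62. The Adar probe sets disagreed in direction, with 1.02, which passed by itself, -0.24 and -0.81, so its mean of -0.01 describes none of them.

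Calls at day 14 moved with single arrays and with RNA quality. Only 1 member passed as lower without IFNAR-/- day 14 mouse 3, without wildtype day 14 mouse 1 or without wildtype day 14 mouse 2. When IFNAR-/- day 7 mouse 3 was left out, which changes only the spread, 5 passed. Ly6e passed in 3 of the 12 fits that leave out 1 array (IFNAR-/- day 7 mouse 3, IFNAR-/- day 14 mouse 3 or wildtype day 7 mouse 2), with differences from 0.69 to 1.04 over all 12. Once the fit took the 5′ over 3′ signal into account, none of the 4 members passed, where 37 of all genes passed in place of 917. They kept a median of 112% of their difference, and all 4 their direction. T cell markers moved as well, and 5 of 8 passed as higher in IFNAR-/- cells. Their array medians were 0.39 to 1.41 against -0.33 to 0.10 in wildtype cells. Also higher were 2 of 7 dendritic cell markers and 1 of 7 alveolar macrophage markers, Marco (3.59 ± 0.70). Of plasmacytoid dendritic cell markers 2 of 6 passed as lower, and of lung epithelial markers 1 of 8. The part of these cells in the member differences was not tested. In the same comparison Ifit1 (-2.04 ± 0.44) and Oas1a (-1.79 ± 0.21) passed as lower among the 18 classical genes, and 3 of the 11 interferon gamma genes passed as higher, Ifng (2.32 ± 0.54), Cxcl9 (2.18 ± 0.52) and Ciita (0.94 ± 0.22), while Ifngr1 passed as lower (-0.78 ± 0.19).

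**Figure D4:**
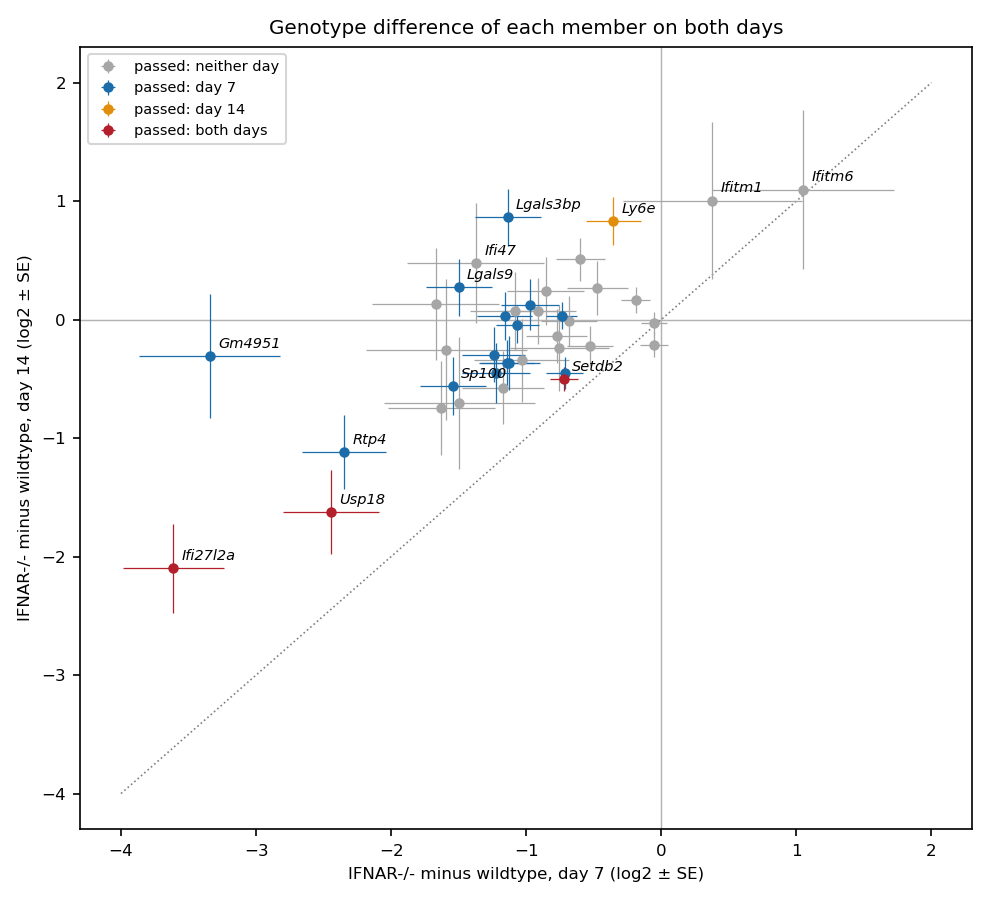
Difference between IFNAR-/- and wildtype cells for each of the 39 members at day 7 (x axis) and day 14 (y axis), log2 with the SE of the fit; colours mark the days on which a member passed, and the dotted line marks equal differences. Only Ifi27l2a, Usp18 and Setdb2 passed on both days, and 38 of 39 members lie above the dotted line.

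In wildtype cells the set fell between day 7 and day 14. All 39 differences were below 0, with a median of -0.82 against 0.02 for all genes, and 17 members fell (43.6%), where 4.10% of all genes did and 7.98% changed in either direction. None rose by limma, with none at an unadjusted p under 0.05 in that direction, where 3.88% of all genes rose. Arrays of the 2 days did not overlap for 28 members, all lower, against 15.2% of all genes. These values share the wildtype day 7 arrays with the genotype comparison at day 7, so the 2 are not independent.

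The largest falls came from Cmpk2, Rtp4, Ifi27l2a and Herc6. Cmpk2 went from 1.71, 2.83 and 1.69 to 0.12, -0.25 and -0.17, a change of -2.18 ± 0.40 (limma adjusted p 0.00884). Rtp4 ended at 0.24, -0.01 and -0.05, a change of -2.12 ± 0.31 (limma adjusted p 0.00334), and Ifi27l2a changed by -2.05 ± 0.37 (0.00884). Both ends of the ISG15 cascade fell: Herc6 changed by -1.97 ± 0.47 (limma adjusted p 0.0289) and Uba7 by -1.20 ± 0.18 (limma adjusted p 0.00388). Usp18 did not follow them: its change was -0.54 ± 0.36, and the values of 0.82, 0.98 and 0.32 at day 14 overlapped those of day 7.

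Lgals3bp and Ly6e fell to the lowest level of any group. Lgals3bp reached -0.67, -0.61 and -1.39 at day 14, a change of -1.91 ± 0.24 (limma adjusted p 0.00162), and Ly6e changed by -1.61 ± 0.20 (limma adjusted p 0.0016). Ifitm3 went from 1.41, 1.86 and 0.96 to -0.07, -0.26 and -0.69, a change of -1.75 ± 0.37 (limma adjusted p 0.0159). Ddx60, which carries the pair of ISRE cores printed above, went from 1.19, 2.21 and 1.15 to -0.04, -0.05 and -0.01, a change of -1.55 ± 0.31 (limma adjusted p 0.0124), with -2.61 and -0.49 on its single probe sets, of which 1 passed. Samd9l (-1.53 ± 0.28, limma adjusted p 0.00882), Znfx1 (-1.35 ± 0.29, 0.0169), Sp100 (-1.09 ± 0.24, 0.0204) and Apobec3 (-0.96 ± 0.25) fell as well, as did Parp9, Epsti1, Tor3a and Ifi35, with changes from -0.82 to -0.74. The members with the least change were Gm4951 at -0.01 ± 0.52, Setdb2 at -0.01 ± 0.10 and Tdrd7 at -0.05 ± 0.10.

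RNA quality and cell type markers moved along with this fall. Dendritic cell marker medians went from 0.37 to 0.43 on day 7 to -0.30 to -0.04 on day 14, with 2 of 7 lower and 1 higher past the test. Lung epithelial markers had a median change of -1.25, with 5 of 8 lower and not overlapping and none of these past the test. Cdh1 of the same list rose without overlap and passed, at 1.33 ± 0.34 (limma adjusted p 0.0376). Of 7 alveolar macrophage markers 2 fell. The part of these cells in the fall was not tested. The poly-A control signal went from 1.131 ± 0.522 to -1.88 ± 0.679 (SD, n = 3). Wildtype day 14 arrays had 5′ over 3′ signals of -0.239, -0.184 and -0.912, below all wildtype day 7 arrays. With that signal in the fit 2 of the 17 members passed, Lgals3bp and Ly6e, and 154 of all genes in place of 1451. All 17 kept their direction, with a median of 85.6% of the change. Whichever 1 array was left out, 10 of the 17 passed: Cmpk2, Lgals3bp, Ly6e, Rtp4, Samd9l, Ifi27l2a, Ifi35, Epsti1, Uba7 and Ddx60. The number was 11 without wildtype day 7 mouse 2 or without wildtype day 14 mouse 3. It was 27 when IFNAR-/- day 7 mouse 3 and IFNAR-/- day 14 mouse 2 were both left out. Of the 18 classical interferon-stimulated genes 17 fell, with Ifit3 at -3.88 ± 0.58 and Oas3 at -3.14 ± 0.28, and Irf7 fell too, at -3.12 ± 0.36.

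In IFNAR-/- cells the set as a whole stayed near its day 7 level. The median change was -0.09 against 0.02 for all genes, with 21 members below 0, where 46.9% of all genes were, and 18 above. Ifitm3 fell (2.56% of members, where 8.25% of all genes fell), and Gm4951 and Lgals9 rose (5.13%, where 4.08% of all genes rose). Arrays did not overlap for 6 lower and 3 higher members, against 17.8% and 16.2% of all genes. The IFNAR-/- arrays used here are those of the genotype comparisons, so a rise from day 7 is not independent of a low day 7 value there.

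Gm4951 made the largest change of any member in this comparison. It went from -3.35, -2.53 and -2.46 at day 7 to 0.20, 1.14 and -0.59 at day 14, a rise of 3.03 ± 0.52 or 8.15-fold (limma adjusted p 0.00485), and reached the range of wildtype day 14 arrays, which held 1.19, 0.77 and -0.29. This rise passed whichever 1 array was left out. Lgals9 rose by 1.08 ± 0.24 (limma adjusted p 0.0163), to 0.02, -0.01 and 0.03, and did not pass without IFNAR-/- day 7 mouse 1 (0.96) or mouse 2 (0.91). Ifi47, the other GTPase, changed by 1.18 ± 0.51 and did not pass. Over the same days 4 of 11 genes of the interferon gamma axis rose in IFNAR-/- cells. These were Ifng by 2.57 ± 0.54, Cxcl9 by 2.12 ± 0.52, Ciita by 1.41 ± 0.22 and Nos2 by 3.63 ± 0.73. The receptor gene Ifngr1 of the same list fell, with a change of -1.07 ± 0.19. Of T cell markers 6 of 8 rose, as did 4 of 7 dendritic cell markers, and 2 of 7 alveolar macrophage markers fell. Whether these changes bear on Gm4951 or Lgals9 was not tested.

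Ifitm3 changed by -1.24 ± 0.37 (limma adjusted p 0.0488), from 0.30, 0.04 and 1.61 to -0.30, -0.66 and -0.80. It passed in only 1 of the 12 fits that leave out 1 array, the one without IFNAR-/- day 7 mouse 2, and changed by -0.76 without mouse 3 of that group. Cmpk2 (-1.30 ± 0.40), Ddx60 (-0.95 ± 0.31) and Rtp4 (-0.89 ± 0.31) were lower at day 14 in every array without passing. For each of them 1 of 2 probe sets passed by itself as lower, at -1.77, -1.64 and -0.61. In the other direction 1 of 3 Tor3a probe sets passed by itself, at 0.75. Of the classical genes Ifit1 (-3.29 ± 0.44), Rsad2 (-2.77 ± 0.38), Ifit3 (-2.60 ± 0.58), Oas3 (-1.35 ± 0.28), Ifih1 (-1.07 ± 0.15) and Ddx58 (-0.48 ± 0.14) fell in the IFNAR-/- cells, and Mx1 rose by 1.32 ± 0.30.

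**Figure D5:**
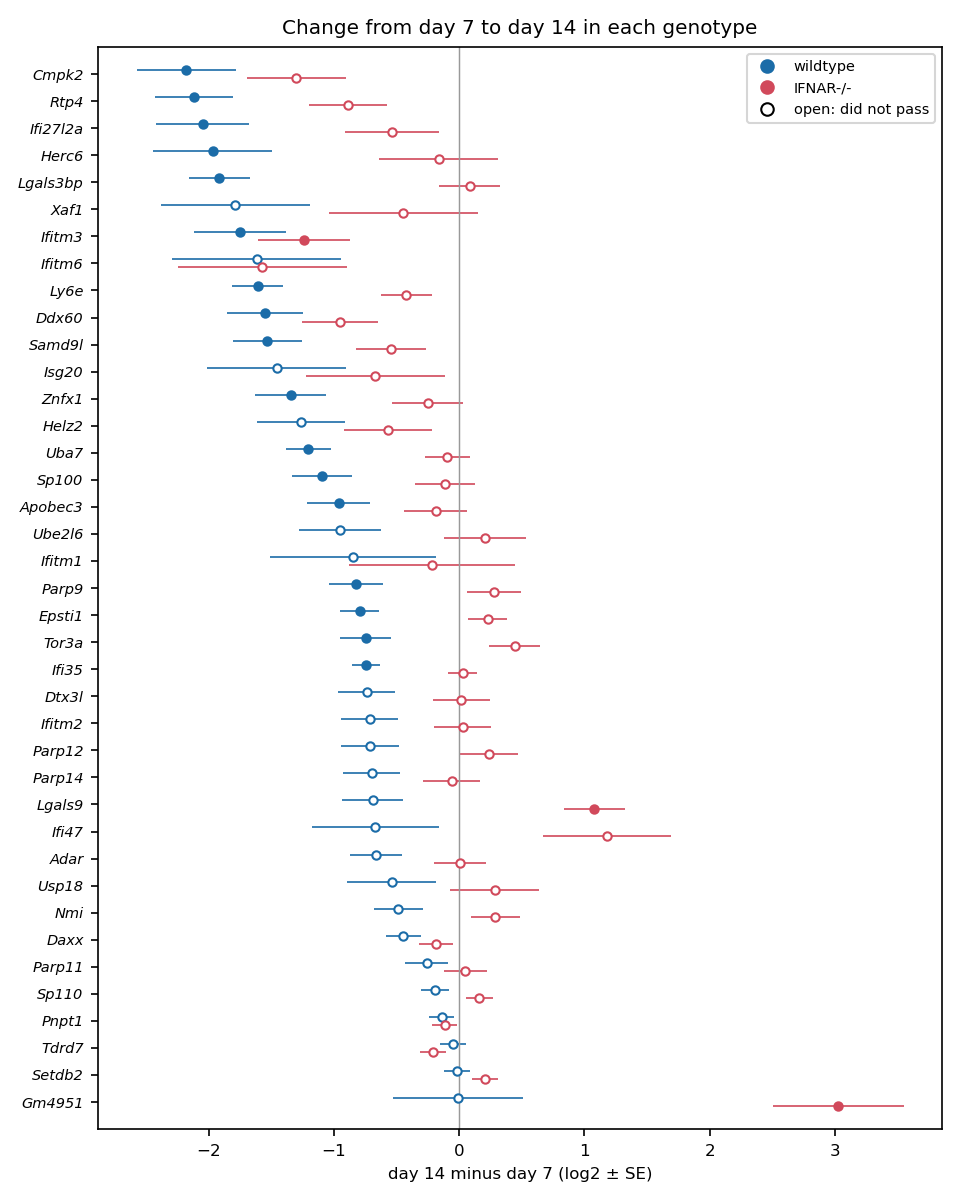
Change from day 7 to day 14 of each member in wildtype (blue) and IFNAR-/- cells (red), log2 with the SE of the fit; filled points passed the test. All 39 wildtype changes are below 0, while the IFNAR-/- changes run from -1.57 (Ifitm6) to 3.03 (Gm4951).

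The genotype difference itself changed between the days for 5 members. Taking the day 7 difference from the day 14 difference gave a value above 0 for 38 of 39 members, where 50.8% of all genes were below 0, with Tdrd7 the exception at -0.16 ± 0.15, and the median was 0.82 against -0.01 for all genes. It passed upward for Lgals3bp, Lgals9, Uba7, Epsti1 and Ifi35, 12.8% of the members, where 1.14% of all genes did. None passed downward by limma, and none had an unadjusted p under 0.05 in that direction, where 1.34% of all genes passed. This value uses the same arrays as the comparisons above.

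Lgals3bp changed most among those that passed, by 2.00 ± 0.34 (SE; limma adjusted p 0.0181), and it passed whichever 1 array was left out. It was lower in IFNAR-/- cells at day 7 and lay above wildtype in every array at day 14. Lgals9 changed by 1.77 ± 0.34 (limma adjusted p 0.0272), Uba7 by 1.11 ± 0.26 (0.049), Epsti1 by 1.02 ± 0.22 (0.0406) and Ifi35 by 0.77 ± 0.16 (0.0345). By themselves 0 of 3 Uba7 probe sets passed, 1 of 4 for Epsti1 and 1 of 3 for Ifi35. The Epsti1 probe sets ran from 0.12 to 1.94. For Epsti1 and Ifi35 the day 14 differences of -0.04 and 0.03 lay near 0. Gm4951 had the largest value of all, 3.04 ± 0.74, and did not pass (limma adjusted p 0.0555), and Ly6e at 1.19 ± 0.29 and Tor3a at 1.19 ± 0.29 did not pass either. Among members that did not pass, 1 of 2 Ly6e probe sets passed by itself (1.85), as did 1 of 3 for Tor3a (1.79). The same held for 1 of 2 Rtp4 probe sets (1.42) and 1 of 3 for Adar (1.97).

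For Usp18, Setdb2 and Daxx the change between days was 0.82 ± 0.50, 0.22 ± 0.15 and 0.26 ± 0.19, and none passed. Usp18 and Setdb2 passed between genotypes on both days, and neither passed over time in wildtype (-0.54 and -0.01) or IFNAR-/- cells (0.28 and 0.20). The number of members past the test in this comparison was 1 without IFNAR-/- day 7 mouse 1 or mouse 2, wildtype day 7 mouse 2 or wildtype day 14 mouse 3. It was 2 without IFNAR-/- day 14 mouse 1, wildtype day 7 mouse 1, or wildtype day 14 mouse 1 or mouse 2, 3 without IFNAR-/- day 14 mouse 2, and 8 without IFNAR-/- day 7 mouse 3. With the 5′ over 3′ signal in the fit it was 0, with a median of 84.2% of the change kept and the direction kept for all 5. Of the 18 classical genes 8 passed upward, Mx1 by 3.02 ± 0.42 and Zbp1 by 2.31 ± 0.47 with the largest values, and Ifnb1 passed downward at -2.92 ± 0.48. Cell type markers changed in the same direction: 4 of 8 T cell markers passed upward (median 2.26), as did 2 of 7 dendritic cell and 2 of 5 NK cell markers. Their part in the members' change was not tested.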

How the data were processed

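RNA of CD11c+ lung cells from 12 mice was measured on Affymetrix mouse arrays, 1 per mouse. Per the submitters' processing notes the authors used RMA, version not given in the sources used here. The deposited value is a linear ratio of each probe set to about its own median over the 12 arrays; this division was read from the values (the median was within 0.02 of 1 for 100% of 45101 probe sets). Brightness and signal over background thus cannot be given, and precision is limited by the count of 12 arrays. All 12 columns were matched to their mice. Of the probe sets 34945 carried 1 gene symbol, and their log2 ratios were averaged into 18193 genes; 67 of them belonged to 39 members (21 members with 1 probe set, 18 with several).

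A model with 1 mean per group was fitted to all genes with limma 3.58.1 in R 4.3.3 (8 residual degrees of freedom, prior 3.21), two-sided, adjusted by Benjamini-Hochberg over 18193 genes. The script was tested on simulated data. Members, lists and tests were chosen with earlier results of these data known. Full values were given, in each comparison, for up to 12 members with the largest differences among those that passed, for any passing against the majority, and for up to 4 genes per pathway list plus Ifnar1 and Irf7; further genes were named after their values were seen. P values measure the spread between mice. Protein sequences were not used here.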

Additional observations from a re-analysis of the deposited data

Results flagged for a closer look

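For 5 members the test of the difference between days passed, so that their IFNAR-/- minus wildtype difference was not the same at day 7 and day 14. The change was 2.00 for Lgals3bp (from -1.14 to 0.86), 1.77 for Lgals9 (from -1.50 to 0.27), 1.11 for Uba7 (from -0.60 to 0.51), 1.02 for Epsti1 (from -1.07 to -0.04) and 0.77 for Ifi35 (from -0.74 to 0.03), all on the log2 scale. Lgals3bp passed in every fit that left out 1 array, Lgals9 in 6 of 12, Ifi35 in 3, and Epsti1 and Uba7 in 2. By themselves 0 of 3 Uba7, 1 of 4 Epsti1 and 1 of 3 Ifi35 probe sets passed.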

How the results depend on the processing

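Each count of members was recomputed under 13 other settings and without each array, and 173 of 248 counts stayed within 1.5 times. The 173 include counts that were 0 and stayed 0, such as members higher at day 7, so they overstate how steady the other counts were. Limits: 3 arrays a group, ratios without brightness, and a 5′ over 3′ signal that goes along with wildtype day 14.

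Without 1 array the members lower at day 7 ranged from 10 to 24 (17 with all arrays), lower at day 14 from 1 to 5 (3) and higher from 0 to 1 (1). Those that fell in wildtype ranged from 11 to 25 (17), fell in IFNAR-/- from 0 to 2 (1), rose there from 1 to 3 (2), and passed upward for the change of the genotype difference from 1 to 8 (5).

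With the 5′ over 3′ covariate 0 were lower and 0 higher at day 14, 2 fell in wildtype, 2 fell in IFNAR-/-, and 0 changed between days. With the poly-A covariate 1 was lower and 3 higher at day 14, and 4 fell in IFNAR-/-. With array weights 32 were lower at day 7, 6 lower and 0 higher at day 14, 3 fell in IFNAR-/-, and 14 changed between days. With every probe set by itself 2 were higher at day 14, 3 fell in IFNAR-/- and 8 changed between days. Without both arrays that stand apart 26 were lower at day 7, 5 lower and 0 higher at day 14, 27 fell in wildtype, 0 fell in IFNAR-/- and 8 changed between days. With only the arrays compared 9 were lower at day 7 and 0 fell in IFNAR-/-. With the probe set of largest SD 2 were higher at day 14 and 2 fell in IFNAR-/-. With quantile normalization again 0 were higher at day 14 and 3 fell in IFNAR-/-. With the trended and robust prior 0 fell in IFNAR-/- and 1 changed between days. Above the median SD 3 fell in IFNAR-/-, and without both arrays high in lung epithelial markers 0 did. The cause was not tested.

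Mouse numbers did not pair the arrays (correlations from -0.397 to 0.232); with them as a replicate block 16 members were lower at day 7, 14 fell in wildtype, 0 fell in IFNAR-/- and 4 changed between days. A reversal was counted only where the value passed with all arrays or in the other setting, and 1 of 4626 single-member values reversed in this sense. Adar at day 14 was 1.02 and passed on the probe set of largest SD, against -0.01 as the mean of probe sets that disagreed in direction. Changes of sign between values that did not pass were not counted.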
